A study of Mus musculus with 7 samples.

Results

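The 33 genes described here copy DNA or control entry into S phase. They are the origin licensing factors, the firing factors that turn a loaded helicase into a working one, the polymerases, the sliding clamp and its loader, the makers of deoxynucleotides, and the cyclin E, E2f1 and Chek1 genes of the G1/S transition. They were given as a list of symbols and matched through the GENCODE M21 annotation to the 17422 Ensembl genes measured, where all 33 were found. The list was not chosen by a threshold on measured values.

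In a proliferating cell, the origin recognition complex (ORC), Cdc6 and Cdt1 load rings of the MCM helicase onto DNA in G1. Cyclin E and its partner kinase, together with E2F transcription factors, then start S phase, when Cdc45 and GINS join the helicase and polymerases copy the strands. Messenger RNAs of many of these genes are made mainly around the G1/S transition, so their level in bulk RNA is commonly read beside the share of cells that are cycling. In the embryonic brain they are abundant in dividing neural precursors.

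RNA was measured by sequencing in cells sorted for the red fluorescent protein DsRed. The library protocol names both selection of poly(A) RNA and removal of ribosomal RNA, and which was used is not clear. Neural precursors came from Balb/c embryos at embryonic day 14 and were grown with bFGF and EGF at 10 ng/ml. Wild-type precursors were given a retrovirus for PDGF-B, a growth factor, and Ink/Arf -/- precursors one for EGFRvIII, a mutant growth factor receptor, each with DsRed. After 10 days, 20000 transduced cells were grafted into the brain of adult BALB/c mice, and tumours were taken when neurological symptoms appeared. By their labels there were 3 gliomas with PDGF-B (wild type), 3 with EGFRvIII (Ink/Arf -/-), and 1 culture of wild-type progenitors with PDGF-B that was sorted but not grafted. Since each oncogene came with its own genotype, the effects of the 2 cannot be told apart. What promoter the retroviruses carry, how old the hosts were and how long symptoms took are not given. The series calls the gliomas of a model independent tumours. The culture has no replicate.

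Depth, recovered from the deposited values, was 32513754 to 39062584 reads per library, and mitochondrial genes held 4.20% to 6.14% of all counts in the gliomas against 9.53% in the culture. Levels are given as CPM, counts scaled to an effective library size. Recovered from the same values, that size was 0.856 (EGFRvIII replicate 2) to 1.06 (EGFRvIII replicate 3) times the summed reads of the genes measured. Both driver genes contradicted the glioma labels: Egfr was at 3594 to 5109 CPM where PDGF-B was the label and at 25.6 to 41.2 CPM where EGFRvIII was, and Pdgfb at 1.95 to 4.88 CPM and 277 to 386 CPM. Cdkn2a, the gene of the Ink/Arf locus, also ran against the genotype labels, at 11.1 to 26.1 CPM in the libraries labelled Ink/Arf -/- and 2.94 to 4.99 CPM in the gliomas labelled wild type (limma adjusted p = 0.0318), though which exons the deletion removes is not given. CPM values throughout are without the prior count that the deposited log2 values hold. All directions and genotypes here are therefore those of the labels. The 8 oligodendrocyte precursor markers summed to 5839 to 13897 CPM in the gliomas, although 1 of them, Neu4, was at 1.14 and 2.07 CPM in EGFRvIII replicates 2 and 3. The 8 neural stem and progenitor markers had their highest mean in the culture, 8.05 log2 CPM against 6.17 to 6.94 in the gliomas. None of the 8 lymphocyte markers listed was among the genes measured. Despite the sort, the summed level of 16 microglia and macrophage markers was 551 to 2294 CPM in the gliomas labelled PDGF-B, 8080 to 18013 CPM in those labelled EGFRvIII and 22.5 CPM in the culture, where C1qb, Trem2 and Tyrobp had 0 reads.

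E2F factors take part in the control of many of these genes, and 7 of the 28 members with a promoter entry in RefSeq (GRCm38.p6) held an E2F word in the 250 bases before the start. The words searched were TTTCCCGC, TTTCGCGC, TTTGCCGC and TTTGGCGC on both strands. Of 27025 genes with an entry, 2.16% held one, against 25.0% of the members. The 7 were Mcm5, Mcm6, Mcm7, Cdc6, Orc1, Pola1 and Rfc3. Mcm4, Gins1, Gins2, Pole and Ccne2 had no entry. The 5-base box CCAAT, on either strand, was in 17 of 28 members (60.7%) and in 37.5% of genes. For 3 role groups with such a word, the 150 bases before the start are shown for the member of highest mean CPM that held one, 5′ to 3′ on the strand of the gene, with the E2F words in capitals. They lie at chr1:128359706-128359855 (Mcm6), chr5:151651209-151651358 (Rfc3) and chrX:93632156-93632305 (Pola1), all on the minus strand. Starts are those of RefSeq, which need not be those of the gene coordinates given below (GENCODE M21, GRCm38, the assembly that mm10 denotes).
Mcm6: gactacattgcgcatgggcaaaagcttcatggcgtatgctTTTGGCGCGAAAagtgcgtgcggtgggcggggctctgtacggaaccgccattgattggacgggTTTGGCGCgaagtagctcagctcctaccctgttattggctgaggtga
Rfc3: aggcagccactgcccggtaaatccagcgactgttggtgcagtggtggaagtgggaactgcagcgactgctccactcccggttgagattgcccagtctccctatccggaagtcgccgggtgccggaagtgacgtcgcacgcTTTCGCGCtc
Pola1: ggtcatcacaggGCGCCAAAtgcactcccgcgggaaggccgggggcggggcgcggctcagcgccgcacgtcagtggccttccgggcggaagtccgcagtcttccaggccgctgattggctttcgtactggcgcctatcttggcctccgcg
In Mcm6 the words began 110, 106 and 47 bases before the start, the first pair overlapping on opposite strands. The word of Rfc3 began 10 bases and that of Pola1 138 bases before the start. A match describes letters in the window and does not show that a factor is bound there.

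Across the 7 libraries the 33 genes had a shared order at its ends. Every member was highest in the progenitor culture, as were 24.0% of all 17422 genes. Every member was lowest in the glioma labelled PDGF-B replicate 2, as were 16.6% of all genes, and 8.05% of all genes met both conditions. The summed CPM of the members was 1207, 386 and 1442 in PDGF-B replicates 1 to 3, 1279, 957 and 1576 in EGFRvIII replicates 1 to 3, and 3491 in the culture. Between the extremes the order varied: EGFRvIII replicate 2 was the second lowest glioma for 26 members, and EGFRvIII replicate 3 the highest glioma for 23. In bulk RNA, fewer cycling cells and less RNA of these genes per cell cannot be told apart.

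**Figure D1:**
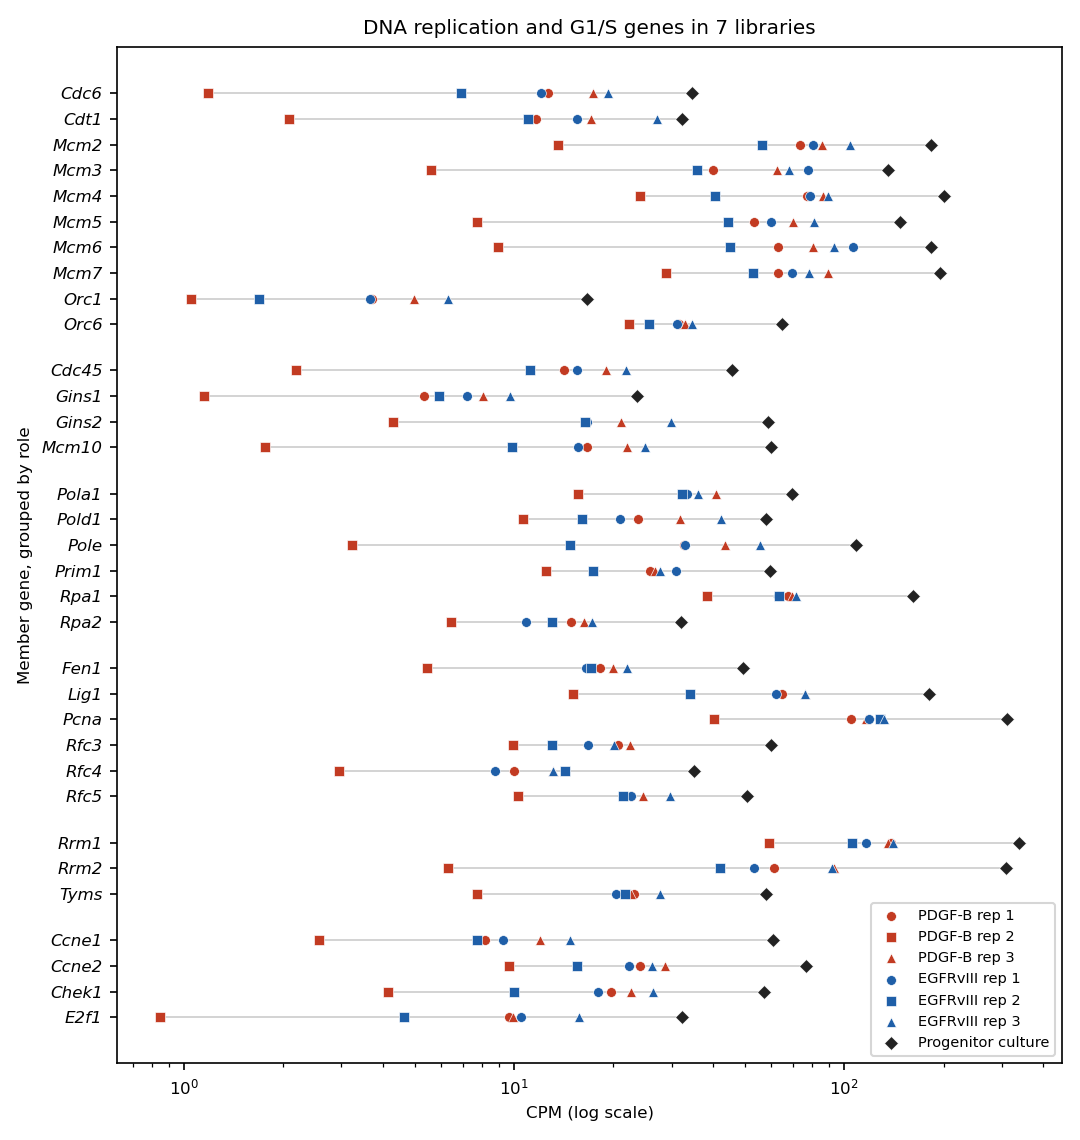
CPM (log scale, x axis) of the 33 genes (y axis, grouped by role) in each of 7 libraries; each point is 1 library, and a line joins the lowest and highest. The glioma labelled PDGF-B replicate 2 (red square) is the lowest point and the culture (black diamond) the highest in all 33 rows.

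Where 3 values follow for a label, they are replicates 1, 2 and 3 in that order. Mcm2 to Mcm7 encode the 6 subunits of the replicative helicase. For Mcm6 (ENSMUSG00000026355, chromosome 1, 128331590 to 128359664), the levels were 63.3, 8.97 and 80.4 CPM with the PDGF-B label, 107, 45.1 and 93.1 CPM with the EGFRvIII label and 183 CPM in the culture. Mcm2 (ENSMUSG00000002870, chromosome 6, 88883474 to 88898780) stood at 73.3, 13.6 and 85.8 CPM with the PDGF-B label, 80.4, 56.3 and 104 CPM with the EGFRvIII label and 183 CPM in the culture. The glioma labelled PDGF-B replicate 2 lay 8.96-fold below the median of the other 5 gliomas for Mcm6 and 5.91-fold below it for Mcm2, while those 5 differed among themselves by 2.36-fold and 1.85-fold from lowest to highest. Mcm3 had the widest gap of the subunits (11.2-fold), at 40.1, 5.61 and 62.5 CPM with the PDGF-B label, 77.7, 35.9 and 68.0 CPM with the EGFRvIII label and 135 CPM in the culture. For Mcm2, Mcm3 and Mcm6 alike, PDGF-B replicates 1 and 3 lay within the range of the gliomas labelled EGFRvIII, and PDGF-B replicate 2 lay below it. Mcm5 lay 7.75-fold below, and Mcm4 and Mcm7 had smaller gaps of 3.26-fold and 2.41-fold. Mcm4 stood at 77.0, 24.1 and 86.4 CPM with the PDGF-B label, 78.6, 40.5 and 89.6 CPM with the EGFRvIII label and 200.2 CPM in the culture. Mcm7 stood at 63.0, 29.0 and 89.0 CPM with the PDGF-B label, 69.7, 53.1 and 78.5 CPM with the EGFRvIII label and 194 CPM in the culture.

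Since the MCM subunits act as a ring, their levels were also set side by side per kilobase of exon. Here and below, exon length is the union of all annotated exons of a gene, which need not be the length of the transcript present. The order of genes per kb within a library therefore depends on these lengths. From lowest to highest subunit the range within a library was 1.48-fold to 2.04-fold in the other 5 gliomas and 2.12-fold in the culture. In the glioma labelled PDGF-B replicate 2 it was 4.49-fold, from 1.49 CPM per kb for Mcm3 to 6.71 CPM per kb for Mcm4. Mcm2 was the lowest subunit per kb in every library except that one. Its exon length was the longest, 6956 bases against 3589 to 4666 for the other subunits, and its low place per kb depends on that length. Exons of Mcm7 overlap those of Ap4m1 and Cops6 on the other strand, and nothing states whether counting used strand, so reads of Mcm7 and of those neighbours cannot be told apart.

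**Figure D2:**
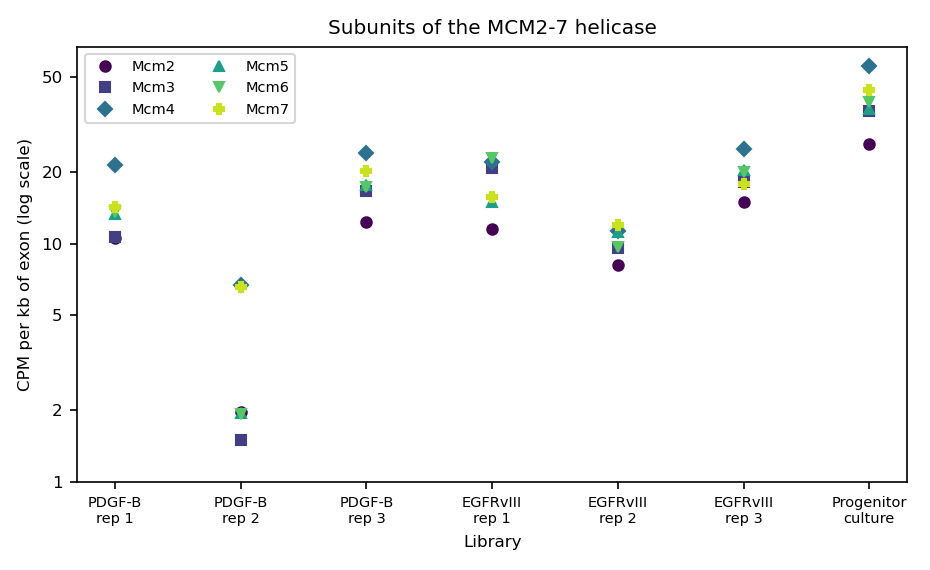
Level of the 6 MCM subunit genes in CPM per kb of exon (log scale, y axis) in each library (x axis); each symbol is 1 gene. In the glioma labelled PDGF-B replicate 2, Mcm4 and Mcm7 stand above the other 4 subunits, which lie between 1.49 and 1.96 CPM per kb.

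The remaining licensing genes are the loaders. Cdc6 (ENSMUSG00000017499, chromosome 11, 98907801 to 98923940), an ATPase that loads the helicase, stood at 12.7, 1.18 and 17.4 CPM with the PDGF-B label, 12.1, 6.90 and 19.2 CPM with the EGFRvIII label and 34.7 CPM in the culture. Cdt1 (ENSMUSG00000006585, chromosome 8, 122568015 to 122573554), its partner in loading, stood at 11.7, 2.09 and 17.1 CPM with the PDGF-B label, 15.5, 11.1 and 27.1 CPM with the EGFRvIII label and 32.2 CPM in the culture. The culture lay only 1.19-fold above the highest glioma for Cdt1, the smallest such margin of the 33 genes. Orc6, a subunit of ORC, stood at 31.6, 22.2 and 32.9 CPM with the PDGF-B label, 31.3, 25.6 and 34.5 CPM with the EGFRvIII label and 64.8 CPM in the culture. Its gap between the glioma labelled PDGF-B replicate 2 and the median of the others, 1.42-fold, was the smallest of all members, and Orc6 overlaps Vps35 on the other strand. Orc1, the largest ORC subunit, was at 3.71, 1.05 and 4.97 CPM with the PDGF-B label, 3.66, 1.69 and 6.32 CPM with the EGFRvIII label and 16.6 CPM in the culture. Its culture level lay 4.48-fold above the median of the other 5 gliomas, more than for any other licensing gene.

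Firing genes act on the loaded helicase, and the 4 measured here shared the gap of the licensing genes. Mcm10 (ENSMUSG00000026669, chromosome 2, 4989714 to 5012791), a factor needed to activate the helicase, stood at 16.6, 1.76 and 21.9 CPM with the PDGF-B label, 15.7, 9.86 and 25.0 CPM with the EGFRvIII label and 60.1 CPM in the culture. Gins2 (ENSMUSG00000031821, chromosome 8, 120578633 to 120589304), a subunit of the GINS complex, stood at 16.7, 4.30 and 21.1 CPM with the PDGF-B label, 16.6, 16.4 and 29.9 CPM with the EGFRvIII label and 58.9 CPM in the culture. Both had 5 gliomas within 2.54-fold of each other, 1 glioma well below them and the culture above. Cdc45, which joins GINS on the helicase, ranged from 2.18 to 45.8 CPM and Gins1 from 1.15 to 23.6 CPM over the 7 libraries. The median gap of the firing group between the glioma labelled PDGF-B replicate 2 and the other gliomas was 6.67-fold, close to the 6.66-fold of the licensing group.

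In the polymerase, primase and single-strand binding group the median gap was smaller, 2.19-fold, with 1 exception. Pole (ENSMUSG00000007080, chromosome 5, 110286306 to 110337474), the catalytic subunit of the leading strand polymerase epsilon, stood at 32.6, 3.24 and 43.6 CPM with the PDGF-B label, 33.1, 14.8 and 55.8 CPM with the EGFRvIII label and 109 CPM in the culture. It varied most among the other 5 gliomas of all members (3.77-fold) and lay 10.2-fold below their median in the glioma labelled PDGF-B replicate 2. Pola1, whose promoter is shown above and which encodes the catalytic subunit of polymerase alpha, stood at 33.3, 15.7 and 40.9 CPM with the PDGF-B label, 33.5, 32.3 and 36.1 CPM with the EGFRvIII label and 69.5 CPM in the culture. Rpa1 (ENSMUSG00000000751, chromosome 11, 75298166 to 75348324), the large subunit of the protein that coats single-stranded DNA, stood at 67.8, 38.4 and 69.5 CPM with the PDGF-B label, 63.0, 63.3 and 71.6 CPM with the EGFRvIII label and 162 CPM in the culture. The other 5 gliomas differed by only 1.14-fold for Rpa1, the narrowest range of any member. Exons of Rpa1 overlap those of Gm47300 on the same strand. Prim1 (primase), Pold1 (polymerase delta) and Rpa2 had gaps of 2.13-fold, 2.24-fold and 2.31-fold in the glioma labelled PDGF-B replicate 2.

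The 6 clamp, clamp loader and maturation genes differed by 1.26-fold to 2.22-fold among the other 5 gliomas. Pcna (ENSMUSG00000027342, chromosome 2, 132249162 to 132253314), the sliding clamp that holds polymerases on DNA, stood at 105, 40.4 and 116 CPM with the PDGF-B label, 119, 128 and 132 CPM with the EGFRvIII label and 311 CPM in the culture. Its named pseudogenes, Pcna-ps1 and Pcna-ps2, can take or give reads. Lig1 (ENSMUSG00000056394, chromosome 7, 13277283 to 13311433), the ligase that seals lagging strand fragments, stood at 65.0, 15.1 and 76.0 CPM with the PDGF-B label, 62.3, 34.2 and 75.9 CPM with the EGFRvIII label and 181 CPM in the culture. Rfc3 (ENSMUSG00000033970, chromosome 5, 151642756 to 151651242), a subunit of the clamp loader whose promoter is shown above, stood at 20.6, 9.91 and 22.5 CPM with the PDGF-B label, 16.7, 13.1 and 20.1 CPM with the EGFRvIII label and 60.0 CPM in the culture. Fen1, the nuclease that trims lagging strand fragments, ranged from 5.44 to 49.3 CPM, Rfc4 from 2.95 to 35.1 CPM and Rfc5 from 10.3 to 50.9 CPM. Exons of 12 of the 33 members overlap another gene, 11 of them one on the other strand, Lig1, Fen1, Rfc4, Gins2, Cdc45, Orc1 and Pole among them.

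The 2 subunits of ribonucleotide reductase, the enzyme that makes deoxynucleotides, differed in their spread over the libraries. Rrm1 (ENSMUSG00000030978, chromosome 7, 102441695 to 102469771), the large subunit, stood at 139, 59.1 and 135 CPM with the PDGF-B label, 117, 106 and 141 CPM with the EGFRvIII label and 339 CPM in the culture. Rrm2 (ENSMUSG00000020649, chromosome 12, 24708241 to 24714146), the small subunit, whose protein is removed outside S phase, stood at 61.1, 6.30 and 92.9 CPM with the PDGF-B label, 53.4, 42.0 and 92.2 CPM with the EGFRvIII label and 309.8 CPM in the culture. Per kilobase of exon the ratio of Rrm2 to Rrm1 was 1.57 to 2.73 in the other 5 gliomas, 3.64 in the culture and 0.424 in the glioma labelled PDGF-B replicate 2. Per kb Rrm2 was thus above Rrm1 in 6 libraries and below it in 1, but in CPM Rrm1 was the higher in every library. Which gene stands higher per kb rests on the exon lengths used, 11012 bases for Rrm1 and 2771 bases for Rrm2. Tyms, thymidylate synthase, stood at 23.1, 7.73 and 22.7 CPM with the PDGF-B label, 20.4, 21.6 and 27.6 CPM with the EGFRvIII label and 57.9 CPM in the culture. A named pseudogene, Tyms-ps, exists for it.

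Cyclin E is encoded by Ccne1 and Ccne2, which activate the kinase that starts S phase. Ccne1 (ENSMUSG00000002068, chromosome 7, 38097984 to 38107534) stood at 8.16, 2.58 and 12.02 CPM with the PDGF-B label, 9.26, 7.74 and 14.7 CPM with the EGFRvIII label and 61.0 CPM in the culture. Ccne2 (ENSMUSG00000028212, chromosome 4, 11191351 to 11204779) stood at 24.1, 9.68 and 28.7 CPM with the PDGF-B label, 22.2, 15.6 and 26.2 CPM with the EGFRvIII label and 76.8 CPM in the culture. The ratio of Ccne1 to Ccne2 per kilobase of exon was 0.349 to 0.740 over the 6 gliomas. In the culture it was 1.04, the only library where the 2 were about level on this scale. In CPM, Ccne1 was below Ccne2 in every library. Ccne1 had the widest margin between the culture and the highest glioma of all members, 4.14-fold. Ccne2 overlaps Ints8 on the other strand.

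E2f1 (ENSMUSG00000027490, chromosome 2, 154559407 to 154569892), the transcription factor that activates many of the genes above, stood at 9.64, 0.848 and 9.94 CPM with the PDGF-B label, 10.5, 4.63 and 15.7 CPM with the EGFRvIII label and 32.2 CPM in the culture. The 28 reads of E2f1 in the glioma labelled PDGF-B replicate 2 were the fewest of any member in any library, and its gap to the other gliomas, 11.7-fold, was the widest of all 33. Chek1 (ENSMUSG00000032113, chromosome 9, 36708482 to 36727065), the kinase that restrains the cycle when forks stall, stood at 19.7, 4.15 and 22.6 CPM with the PDGF-B label, 17.9, 10.0 and 26.4 CPM with the EGFRvIII label and 57.2 CPM in the culture.

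Over all 33 genes, the median of the other 5 gliomas was 1.42-fold to 11.7-fold above the glioma labelled PDGF-B replicate 2, with a median of 3.60. The gap exceeded 5-fold for 12 genes, E2f1, Mcm3, Cdc6, Pole, Rrm2, Mcm10, Mcm6, Mcm5, Cdt1, Cdc45, Gins1 and Mcm2. It was below 2.5-fold for 11, among them Orc6, Rpa1, Rfc3, Prim1, Pola1 and Rrm1. The culture lay 2.05-fold to 6.58-fold above the median of the same 5 gliomas, with a median of 2.67, and 24 of 33 genes fell below 3-fold. For comparison, the medians over 15162 genes with a mean of at least 1 CPM, computed with a pseudocount of 0.1 CPM, were 1.00 and 0.998, and those of the members on that scale 3.50 and 2.66. Among the other 5 gliomas alone, highest over lowest was a median of 1.84 for the members and 1.92 for those 15162 genes on the same scale. These medians are not a like comparison. The glioma left out was the lowest library for every member but for only 16.6% of all genes, so leaving it out removes the extreme value of each member.

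**Figure D3:**
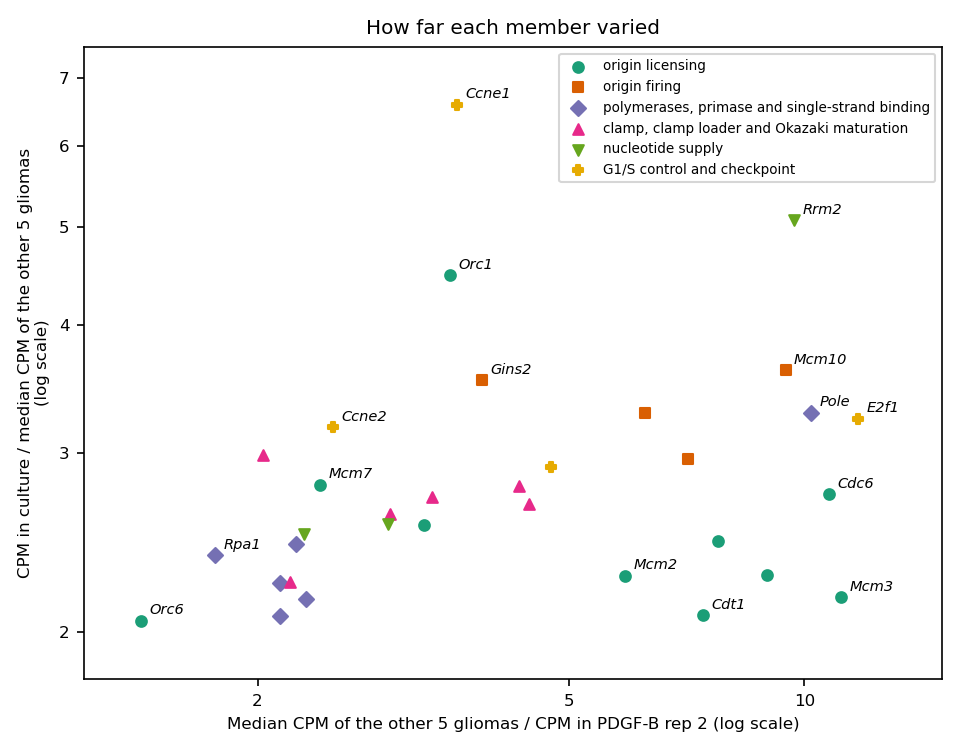
For each of the 33 genes, the ratio of the median CPM of the other 5 gliomas to the glioma labelled PDGF-B replicate 2 (x axis, log scale) and the ratio of the culture to that same median (y axis, log scale); each point is 1 gene and its symbol and colour give the role. The x axis spreads the genes from 1.42 (Orc6) to 11.7 (E2f1), while most lie between 2.05 and 3 on the y axis, with Ccne1 highest at 6.58.

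Other measures moved with the glioma labelled PDGF-B replicate 2. It had the lowest mitochondrial share (4.20%) and the fewest reads (32513754), though only slightly fewer than PDGF-B replicate 1 (32695512). All 22 genes of a mitosis list were lowest in it and highest in the culture, as were 8.05% of all genes. The mitosis list summed to 261 CPM in this glioma, against 1309 to 1923 CPM in the other gliomas and 4816 CPM in the culture. Oligodendrocyte precursor markers (8 genes) summed to 13897 CPM in it, against 5839 to 10644 CPM in the other gliomas. Myelinating oligodendrocyte markers (7 of 8 listed, without Opalin) summed to 635 CPM, against 242 to 563 CPM. The 8 neural stem and progenitor markers summed to 1205 CPM, the lowest of the 7 libraries, against 1431 to 2620 CPM in the other gliomas, with Nes at 47.3 CPM and Vim at 100.5 CPM. The astrocyte (8 genes) and mature neuron (9 genes) markers had their highest sums there, 2481 and 321 CPM, but not their highest means. Slc1a2 (1619 CPM) and Aldoc (424 CPM) made up most of the astrocyte sum, while Slc1a3 and Gja1 were lowest there. The astrocyte mean was 4.92 log2 CPM there and 6.80 in PDGF-B replicate 3. The neuron mean was 2.80 log2 CPM there and 3.43 in EGFRvIII replicate 3. Across the 17422 genes the Spearman correlation of PDGF-B replicate 2 with PDGF-B replicate 1 was 0.977. In EGFRvIII replicate 2, the second lowest glioma for 26 members, the microglia and macrophage sum was the highest of the 7 libraries, 18013 CPM. Whether any of these measures had a part in the levels of the replication genes was not tested.

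**Figure D4:**
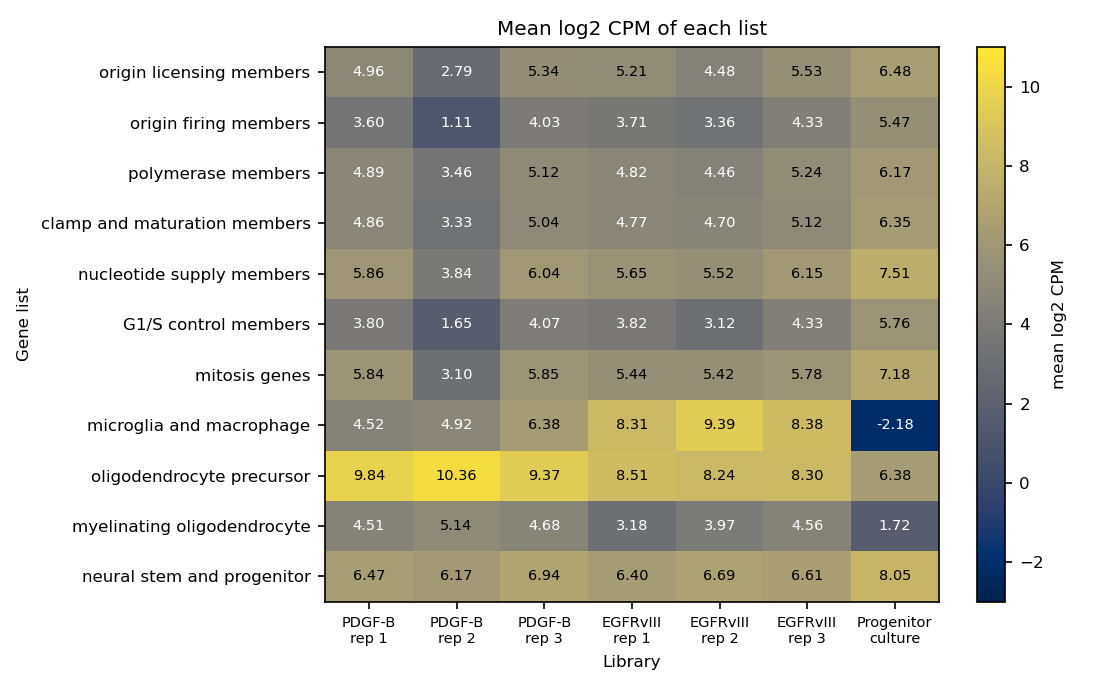
Mean log2 CPM (colour and printed value) of the 6 role groups of the replication and G1/S genes and of 5 comparison lists (y axis) in each library (x axis). The column of the glioma labelled PDGF-B replicate 2 holds the lowest value of each role group and of the mitosis list, while its oligodendrocyte precursor mean is the highest, 10.36.

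The first comparison asked whether the gliomas of the 2 models differ. None of the 33 genes was called by limma at a Benjamini-Hochberg adjusted p of 0.05, whereas the calls over all genes came to 0.717% higher and 2.63% lower with the PDGF-B label. No member reached an unadjusted p of 0.05, against 16.7% of all genes. With voom weights 0 members were called as well, beside 543 of all genes. All 33 of the limma 95% intervals covered 0. For Mcm2, the group means were 57.6 ± 38.6 CPM with the PDGF-B label and 80.2 ± 23.8 CPM with the EGFRvIII label (SD, n = 3 each). For Rrm1 they were 111 ± 45.1 and 121 ± 17.9 CPM, and for E2f1 6.81 ± 5.17 and 10.3 ± 5.55 CPM (SD, n = 3 each). These differences were smaller than the spread of the group labelled PDGF-B. In the same comparison 15 of the 16 microglia and macrophage markers were called lower with the PDGF-B label, and their part in these values was not tested.

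Fitted differences were mostly negative, 32 of 33, with a median of -0.55 on the log2 scale against -0.00015 over all genes. They are differences of mean deposited log2 CPM, labelled PDGF-B minus labelled EGFRvIII. Pcna had the smallest p, with a difference of -0.68 ± 0.39 (SE, n = 3 each, limma adjusted p = 0.423), and was the only member whose groups did not overlap, although 22.9% of all genes had groups that did not. Its nearest libraries in the 2 groups were at 116 and 119 CPM. Among licensing genes, Mcm2 differed by -0.82 ± 0.67 and Mcm4 by -0.28 ± 0.53 (SE, limma adjusted p = 0.570 and 0.801). Mcm10 differed by -0.85 ± 0.91 and Gins2 by -0.81 ± 0.60 (SE, limma adjusted p = 0.657 and 0.528). The loaders Cdc6 and Cdt1 differed by -0.86 ± 0.97 and -1.15 ± 0.77 (SE, limma adjusted p = 0.673 and 0.491). The 95% interval of each of these genes extended on both sides of 0. For Pole and Rpa1 the differences were -0.85 ± 0.98 and -0.22 ± 0.25 (SE, limma adjusted p = 0.679 and 0.680).

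Lig1 and Rfc3, of the clamp group, differed by -0.37 ± 0.62 and 0.02 ± 0.36 (SE, limma adjusted p = 0.773 and 0.981). The reductase genes Rrm1 and Rrm2 differed by -0.22 ± 0.34 and -0.84 ± 0.94 (SE, limma adjusted p = 0.764 and 0.668). Ccne1 and Ccne2 differed by -0.68 ± 0.58 and -0.14 ± 0.43 (SE, limma adjusted p = 0.580 and 0.878), and E2f1 and Chek1 by -1.05 ± 0.96 and -0.45 ± 0.68 (SE, limma adjusted p = 0.605 and 0.750). Without the glioma labelled PDGF-B replicate 2, 23 members were higher and 10 lower, the median was 0.09, and no member was called (limma adjusted p from 0.727 to 0.995), in a fit that called 7 of all genes. The sign of the median thus rested on 1 library.

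**Figure D5:**
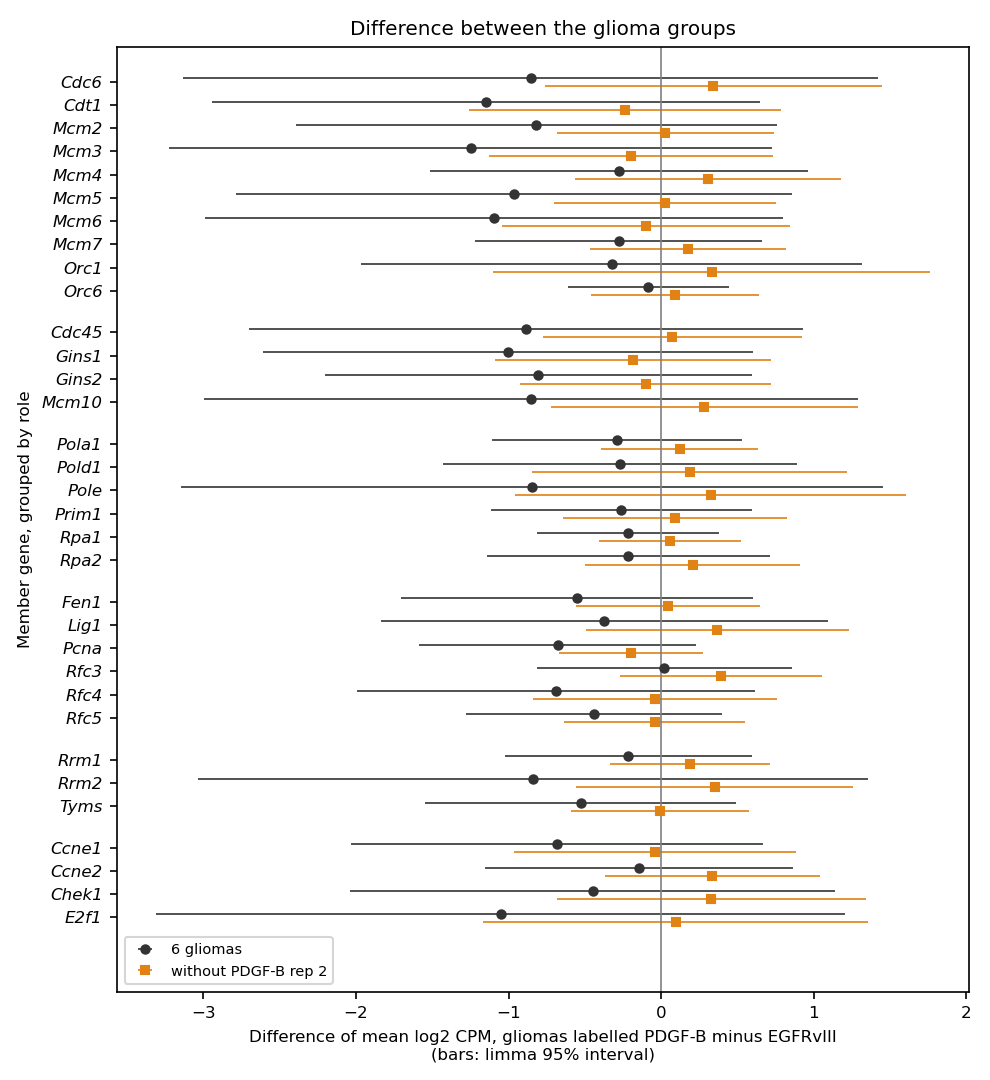
Difference of mean log2 CPM between the gliomas labelled PDGF-B and EGFRvIII (x axis) for each of the 33 genes (y axis), with the limma 95% interval as a bar; black circles use all 6 gliomas and orange squares leave out PDGF-B replicate 2. All 33 bars of each kind cross 0, and the median moves from -0.55 to 0.09.

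The culture carries the same label, PDGF-B, without growth in the brain, and the gliomas labelled PDGF-B were next compared with it. Pdgfb itself stood at 245 CPM in the culture, against 1.95 to 4.88 CPM in these gliomas. All 33 members were lower in the gliomas, by a median of 2.09 on the log2 scale against a median difference of 0.04 over all genes, and the differences ran from -3.26 to -1.18. By limma, 2 of 33 were called lower (1.73% of all genes were) and 0 higher (7.73% of all genes). Rpa1 fell by 1.51 ± 0.36 and Ccne1 by 3.26 ± 0.80 on the log2 scale (SE, 3 gliomas and 1 culture, limma adjusted p = 0.0425 and 0.0479). In this fit 21 of 33 members had an unadjusted p under 0.05, against 27.2% of all genes. After the 2 called, the smallest adjusted p belonged to Orc6 at -1.18 ± 0.31 and Rfc3 at -1.85 ± 0.50 (SE, limma adjusted p = 0.0587 and 0.0609). Pcna, Rrm1 and Ccne2 had differences of -1.98 ± 0.55, -1.71 ± 0.49 and -2.02 ± 0.60 (SE, limma adjusted p = 0.0669, 0.0723 and 0.0811).

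The other genes with fitted values follow, several of them with gaps above 5-fold in the glioma labelled PDGF-B replicate 2. The low value of that glioma enters both the difference and the error. Rrm2 differed by -3.23 ± 1.32, E2f1 by -2.86 ± 1.35 and Mcm10 by -2.79 ± 1.28 (SE, limma adjusted p = 0.169, 0.220 and 0.211). Pole, Cdc6 and Cdt1 differed by -2.70 ± 1.38, -2.42 ± 1.36 and -2.09 ± 1.08 (SE, limma adjusted p = 0.249, 0.291 and 0.252). Gins2, Chek1 and Lig1 differed by -2.35 ± 0.84, -2.21 ± 0.95 and -2.11 ± 0.88 (SE, limma adjusted p = 0.127, 0.186 and 0.176), and Mcm2 and Mcm4 by -2.05 ± 0.95 and -1.88 ± 0.74 (SE, limma adjusted p = 0.212 and 0.158). The lone culture is assumed to vary like the gliomas, and both calls were lost without PDGF-B replicate 1, without EGFRvIII replicates 1, 2 or 3 (limma adjusted p from 0.0549 to 0.0851), or without the trend and robust options (0.0788 for Rpa1 and 0.0744 for Ccne1). Without PDGF-B replicates 2 or 3 both held, with 3 and 6 members called beside 1054 and 2303 of all genes (1647 with all libraries), and the call of Rpa1 alone was lost with quantile normalization and voom weights (adjusted p = 0.0604 and 0.0681, limma).

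In the third comparison the gliomas labelled EGFRvIII were set against the same culture, so it shares that library with the second. All 33 members were again lower in the gliomas, by a median of 1.55 on the log2 scale (0.01 over all genes). No member was called lower (1.34% of all genes were) or higher (8.20% of all genes) by limma. With voom weights the count was 0 as well, beside 721 of all genes. An unadjusted p under 0.05 was reached by 9 of 33, against 23.9% of all genes, a share close to that background. Rfc3 had the smallest p, at -1.87 ± 0.50, followed by Rpa1 at -1.29 ± 0.36 (SE, limma adjusted p = 0.0601 and 0.0698). Ccne1 and Ccne2 stood at -2.57 ± 0.80 and -1.88 ± 0.60, and Rrm1 and Rrm2 at -1.49 ± 0.49 and -2.39 ± 1.32 (SE, limma adjusted p = 0.0970, 0.104, 0.109 and 0.328). Cdt1 had the difference nearest to 0, -0.95 ± 1.08, and E2f1 stood at -1.81 ± 1.35 (SE, limma adjusted p = 0.657 and 0.475). Without the glioma labelled PDGF-B replicate 2, which enters this fit through the spread alone, 10 members were called lower, with 1657 of all genes called in either direction (1663 in the fit of all libraries). These were Rpa1, Ccne1, Ccne2, Rrm1, Rrm2, Fen1, Tyms, Pcna, Mcm7 and Rfc3. With each library given the same median, 3 were called lower, Rpa1, Orc6 and Rfc3, with 1660 of all genes called. The microglia and macrophage markers, at 22.5 CPM in sum in the culture and 551 to 18013 CPM in the gliomas, move with both comparisons, and their part in the levels of the replication genes was not tested.

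Of 80 further genes of the same processes in 5 lists, 65 were lowest in the glioma labelled PDGF-B replicate 2, as were 16.6% of all genes. Highest in the culture were 65 of the 80 and 24.0% of all genes. None of the 80 was called between the glioma groups by limma, with 0 at an unadjusted p under 0.05 and a median difference of -0.30. Against the culture, 3 were called lower in the gliomas labelled PDGF-B (1.73% of all genes were) and 3 in those labelled EGFRvIII (1.34% of all genes), and none was called higher. The medians of the 80 genes were -1.32 and -1.11. An unadjusted p under 0.05 was reached by 39 and 23 of the 80, against 27.2% and 23.9% of all genes. Dck, the kinase that salvages deoxycytidine, stood at 46.3, 30.5 and 52.0 CPM with the PDGF-B label, 49.6, 53.2 and 54.5 CPM with the EGFRvIII label and 163 CPM in the culture. It fell by 1.96 ± 0.32 and by 1.63 ± 0.32 on the log2 scale in the gliomas labelled PDGF-B and EGFRvIII (SE, limma adjusted p = 0.0120 and 0.0203). Nasp, a histone chaperone, stood at 143, 88.8 and 161 CPM with the PDGF-B label, 144, 82.0 and 133 CPM with the EGFRvIII label and 437 CPM in the culture. It fell by 1.78 ± 0.43 and 1.91 ± 0.43 (SE, limma adjusted p = 0.0454 and 0.0349). Ctps, which makes CTP, fell by 1.15 ± 0.28 in the gliomas labelled PDGF-B (SE, limma adjusted p = 0.0446), and Rfc1, the large clamp loader subunit, by 1.22 ± 0.30 in those labelled EGFRvIII (SE, limma adjusted p = 0.0469).

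Genes of these lists that did not share the order of the members can also be named. Of 16 other licensing and firing genes, Orc3, Orc4, Cdc7 and Gins4 were not lowest in the glioma labelled PDGF-B replicate 2, and Orc3, Orc4 and Orc5 were not highest in the culture. Of 16 other nucleotide supply genes, Rrm2b, the reductase subunit induced by p53, met neither condition, and Dctpp1, Dtymk, Samhd1 and Impdh2 were not highest in the culture. All 12 other G1/S control genes were highest in the culture, but Skp2, Fbxw7 and Cdkn1b were not lowest in the glioma labelled PDGF-B replicate 2. Cdkn1b, which encodes the cyclin E kinase inhibitor p27, stood at 141, 155 and 165 CPM with the PDGF-B label, 152, 157 and 143 CPM with the EGFRvIII label and 168 CPM in the culture, a narrow range beside that of Ccne1. Of 17 genes for fork protection and chromatin assembly, Atr, the kinase upstream of Chek1, and Hus1 met neither condition. In the same list Atrip, Rad17 and Nasp were not lowest in that glioma, and Rad1 was not highest in the culture. Among 19 other polymerase, clamp loader and maturation genes, Rfc1 and Atad5 were not lowest in that glioma, and Pold2, Pold4, Rnaseh2c and Chtf8 were not highest in the culture.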

How the data were processed

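Values were deposited as log2 CPM, per the file headers, which is counts per library size, here an effective one, on a log2 scale. The unit is missing from the header of EGFRvIII replicate 3, whose floor of -4.12 is that of the others. The authors used STAR, edgeR and mm10, per the submitters' processing notes, in roles and with a quantifier, scaling, gene filter and use of strand not given in the sources used here. Low values were all multiples of 0.01 read (within 0.001), so the authors used estimated counts with fractions and a prior count of 2; 36.3% to 38.5% were whole reads (within 0.02), and no count test was run. CPM without the prior was computed from these values.

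The deposited log2 values were tested with limma 3.58.1 in R 4.3.3 (intensity trend, robust moderation, Benjamini-Hochberg adjustment over 17422 genes, called at 0.05), after a test on simulated data. The first comparison used 6 gliomas. Both comparisons with the culture used 7 libraries in 3 groups. Fold changes of low genes are understated. GENCODE M21 gave a symbol for 17247 IDs and none for 175. Alternatives were other scalings and prior counts, a CPM filter, voom weights, other moderation, a stricter threshold, a replicate block and leaving out each glioma.

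All members are named. Fitted differences are given for the 2 of highest mean CPM in each role group, Ccne1, Ccne2, E2f1, Cdt1, Cdc6, the member of smallest p in each comparison and the called genes of the other lists; the fitted values of Orc6 were added after they were seen. The members and lists were chosen with earlier results of these data known.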

Additional observations from a re-analysis of the deposited data

How the results depend on the processing

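Between the glioma groups, no member was called under any alternative run, in fits that called 4 to 1282 of all genes. The median member difference ran from -0.89 to 0.09 over the fits that each left out 1 glioma. Of the 17 genes with fitted differences, 13 changed sign in such fits. Without PDGF-B replicate 2, 12 genes did so, and in each of the other such fits at most 1 did. The log2 differences ran from -1.30 to 0.028 (Mcm2), -0.63 to 0.31 (Mcm4), -1.52 to 0.28 (Mcm10), -0.43 to 0.19 (Rrm1), -1.58 to 0.35 (Rrm2), -1.57 to 0.34 (Cdc6), -1.54 to 0.32 (Pole), -0.20 to 0.39 (Rfc3), -0.80 to 0.37 (Lig1), -0.37 to 0.060 (Rpa1), -0.89 to 0.33 (Chek1), -0.45 to 0.34 (Ccne2) and -1.64 to 0.10 (E2f1). No difference of these genes changed sign under another scaling, prior, filter, weight, moderation or block, in any of the 3 comparisons.

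For the gliomas labelled PDGF-B against the culture, 2 members were called in the main fit, beside 1647 of all genes. The count was 4 (1635 of all genes) with the same median in each library, 1 (1236) with quantile normalization and 1 (553) with voom weights. It was 0 (1335) without trend and robust moderation and 0 (507) at an adjusted p of 0.01. When 1 glioma was left out it was 0 to 6 (854 to 2303 of all genes), with 6 (2303) without PDGF-B replicate 3. For the gliomas labelled EGFRvIII, the count of 0 (1663 of all genes) was 3 (1660) with the same median. When 1 glioma was left out it was 0 to 10 (1058 to 2030 of all genes), with 10 (1657) without PDGF-B replicate 2. Giving each library the same median shifted every difference by 0.13, -0.08 and -0.21 log2 in the 3 comparisons. The causes were not tested.

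Same-numbered gliomas correlated at 0.19, -0.041 and -0.097 in their deviations from the group means, and differently numbered ones at -0.27 to 0.23. These values do not set same-numbered gliomas apart, and with 3 pairs they cannot exclude a pairing. With the replicate block, 0, 8 and 4 members were called in the 3 comparisons, beside 18, 1187 and 1246 of all genes. The call of Rpa1 was then lost. With 1 culture library and 3 gliomas a group, the precision is limited by the number of libraries. Intervals do not cover a difference between cultures.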
